A study of Mus musculus with 6 samples.

Results

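The genes described here encode enzymes that cut or crosslink the extracellular matrix and the inhibitors of the cutting enzymes. They are 10 genes chosen by name, namely the matrix metalloproteinases Mmp2, Mmp13 and Mmp14, the tissue inhibitors of metalloproteinases Timp1, Timp2, Timp3 and Timp4, and the lysyl oxidases Lox, Loxl1 and Loxl2, out of 25419 genes in the table. All 10 had a mean of at least 0.1 FPKM (fragments per kilobase of transcript, scaled to the depth of the library) and were among the 19465 genes tested. Cochlear RNA of C57BL/6 mice, an inbred strain that loses hearing early with age, was sequenced at 1 month (young) and at 12 months (old), with 3 samples per age and no treatment or engineered allele in either group. Per the methods of the study, tissue of 3 mice was mixed in each sample, so the spread between samples is a spread between pools. The sex of the mice is not given in the sources used here. The study compared the ages to look for long noncoding RNAs linked to the hearing loss that this strain develops with age.

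The matrix of the inner ear includes the collagens of the spiral ligament, the bony capsule, basement membranes and the fibrous layer of the basilar membrane. Metalloproteinases are zinc enzymes, made as inactive precursors, that cut collagens and other matrix proteins outside the cell. TIMPs block them by placing their first cysteine on the zinc of the active site. Lysyl oxidases are copper enzymes that oxidize lysine residues of collagen and elastin, which starts the crosslinks that make fibres stable and insoluble.

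The sequences below are the parts of the coding regions for zinc binding in the metalloproteinases and for inhibition in the TIMPs, and no lysyl oxidase is included. They were found by a protein pattern of each family, so part of their likeness was given by the choice. They are shorter than a sequencing read and do not show how distinct the whole genes are to a read. They are from GRCm38 with the transcripts of GENCODE M21, 5′ to 3′ on the strand of the gene. In the metalloproteinases the capitals are the codons of the 3 histidines that hold the zinc ion. The Mmp2 stretch lies at chr8:92839279-92839311 in exon 8 of 13, that of Mmp13 at chr9:7276573-7276605 in exon 5 of 10, and that of Mmp14 at chr14:54437627-54437659 in exon 5 of 10.
Mmp2: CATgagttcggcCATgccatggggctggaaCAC
Mmp13: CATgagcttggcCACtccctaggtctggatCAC
Mmp14: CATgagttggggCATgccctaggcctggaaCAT
The 3 genes shared 23 of these 33 bases, and pairs of them shared 25 to 27. In the inhibitors the capitals are the codons of the first cysteine of the mature protein, which contacts the zinc ion, and of the next cysteine. The Timp1 stretch lies at chrX:20871111-20871137 in exon 2 of 6, and those of Timp2 (chr11:118354986-118355012, minus strand), Timp3 (chr10:86300923-86300949) and Timp4 (chr6:115251665-115251691, minus strand) lie in exon 1 of 5.
Timp1: TGTagcTGTgccccaccccacccacag
Timp2: TGCagcTGCtccccggtgcacccgcaa
Timp3: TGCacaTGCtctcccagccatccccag
Timp4: TGCagcTGTgcgcctgcgcacccccag
All 4 inhibitors shared 14 of these 27 bases, and pairs shared between 16 (Timp1 and Timp3) and 21 (Timp1 and Timp4). So even in these conserved stretches each pair of genes differed at several bases.

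The libraries held an estimated 12280000 to 15540000 fragments per sample. The labels describe the dissected part as the basilar membrane, and markers of hair cells (sums of 149.4 to 293.7 FPKM over 10 genes) were present in every sample. Spiral ligament fibrocyte markers summed to 9006.1 to 13130.0 FPKM over 5 genes, and osteoblast and osteocyte markers to 4281.6 to 5816.6 FPKM over 12 genes. Most of the latter sum was Spp1, the gene of osteopontin, at 4215.6 to 5550.4 FPKM, so the sum is mainly a measure of Spp1. Among the other bone markers, Bglap2 was at 26.3 to 104.4 FPKM and Dmp1 at 7.03 to 20.1 FPKM. The tissue thus included RNA of lateral wall and bone markers beside that of the sensory epithelium. Neutrophil markers summed to 432.6 FPKM in young sample 1 and to 11.6 to 82.5 FPKM in the other 5 samples. Most of the sum in young sample 1 was S100a8 (227.9 FPKM) and S100a9 (158.6 FPKM).

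Of the 10 genes, 1 was called higher in the old cochlea (Timp2), 1 was called lower (Lox), and 8 did not pass an adjusted p of 0.05. Over all genes tested, 5.65% were called higher and 3.81% lower, so a count of 1 of 10 in each direction is not a result about the group as a whole. Levels in the 3 old samples were above those in all 3 young samples for 1 of the 10 genes (Timp2), against 17.6% of all genes, and below them for 3 (Timp4, Lox and Loxl2), against 16.1%. The median log2 change of the 10 genes was 0.06, and that of all genes tested was 0.0088. The RNA came from a mixture of cells, so fewer cells of a type and less RNA per cell cannot be told apart in any of these values.

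By level per length, the 10 genes ranged from among the most abundant to among the least abundant genes tested. The mean over the 6 samples was 181.5 FPKM for Timp3, 166.4 for Timp2, 33.4 for Mmp14, 27.1 for Lox, 22.7 for Mmp2, 7.63 for Loxl1, 4.99 for Timp1, 3.56 for Timp4, 1.03 for Loxl2 and 0.346 for Mmp13. In this order, neighbours overlapped in their ranges over the 6 samples except at 2 steps, from Timp2 down to Mmp14 and from Mmp2 down to Loxl1. Timp3 and Timp2 were above 97.9% and 97.7% of the genes tested, while Mmp13 was above 9.6%.

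**Figure D1:**
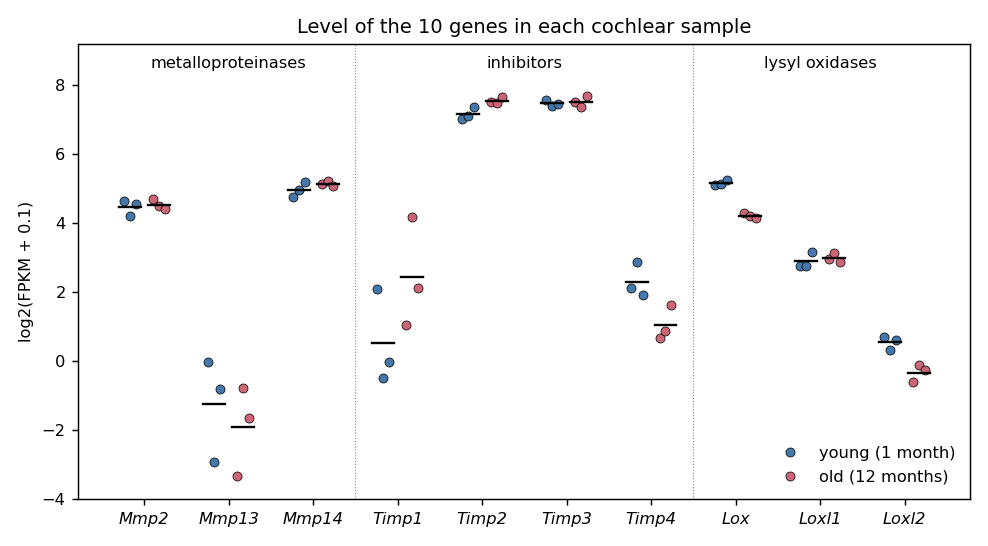
Levels of the 10 genes as log2(FPKM + 0.1) in 3 young (blue) and 3 old (red) samples, each point 1 sample and each bar the mean of a group on this scale. Lox lies lower in every old sample, Timp2 lies higher in every old sample by a smaller step, and Timp1 and Mmp13 show the widest spread within an age group.

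Lox was the gene with the clearest difference. Lox encodes the founding lysyl oxidase, and lies on chromosome 18 from 52516067 to 52529867, on the minus strand (ENSMUSG00000024529). Its level was 34.1, 34.9 and 37.7 FPKM in young samples 1 to 3 and 19.7, 18.3 and 17.7 FPKM in old samples 1 to 3. All old samples lay well below all young samples, and the samples of each age were close together. The mean was 35.6 ± 1.91 FPKM (SD, n = 3) in the young and 18.5 ± 1.01 (SD, n = 3) in the old cochlea, which was 1.91-fold lower. The log2 change was -0.94 (SE 0.08, 95% interval -1.12 to -0.75) with an adjusted p of 0.00536 in limma. The exact permutation test of the single gene gave a two-sided p of 0.1, the smallest that 3 samples against 3 allow. Lox passed the threshold under all 18 alternatives that give its log2 change and fell short only of an added 2-fold minimum, with log2 changes of -0.98 to -0.89 when each sample was left out in turn.

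By the estimated FPKM, the difference in Lox was carried mainly by 1 of its 2 protein-coding transcripts in the table. The 2 transcripts span nearly the same stretch of the chromosome, so the split of reads between them is an estimate. ENSMUST00000171470, with 8 exons and 4468 nt, had 22.9, 26.5 and 24.9 FPKM in the young and 12.0, 9.77 and 9.91 FPKM in the old samples. Its log2 change was -1.22 (SE 0.11), with an adjusted p of 0.0303 over 38764 transcripts. ENSMUST00000025409, with 7 exons and 4741 nt, had 11.2, 8.47 and 12.8 FPKM in the young and 7.61, 8.52 and 7.78 FPKM in the old samples. These groups overlapped, and its log2 change of -0.42 (SE 0.17) had an adjusted p of 0.274. ENSMUST00000171470 made up 69.6 ± 5.34% of the Lox level in the young and 56.9 ± 4.0% in the old samples (SD, n = 3 each), a share that was not tested. Without any 1 of young samples 1 and 2 and old samples 1 to 3, no transcript of the 10 genes was called lower, and without young sample 3 the count stayed at 1.

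The other lysyl oxidases did not pass the threshold. Loxl2, which acts on collagen IV of basement membranes, lies on chromosome 14 from 69609068 to 69695834 and was a low gene, with 1.52, 1.15 and 1.42 FPKM in the young and 0.552, 0.816 and 0.736 FPKM in the old samples. The age groups did not overlap, but its adjusted p was 0.085 at a log2 change of -0.87 (SE 0.27, 95% interval -1.5 to -0.24). This rested on an estimated 34.5 to 100.3 fragments per sample. Loxl1, known for its part in the upkeep of elastic fibres (chromosome 9 from 58287738 to 58313186), had 6.73, 6.69 and 8.82 FPKM in the young and 7.66, 8.60 and 7.26 FPKM in the old samples. Its groups overlapped, with a log2 change of 0.09 (95% interval -0.25 to 0.43) and an adjusted p of 0.729. Because Lox is the most abundant of the 3, their summed level was 44.4 ± 3.14 FPKM in the young and 27.1 ± 1.22 FPKM in the old samples, and the share of Lox in it was 80.3 ± 1.51% and 68.5 ± 2.29% (SD, n = 3 each).

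Timp2 was the inhibitor that passed the threshold, and only narrowly. Timp2 is a secreted inhibitor that also bridges Mmp14 and the precursor of Mmp2 when that precursor is activated at the cell surface, and it lies on chromosome 11 from 118301069 to 118355740. Its level was 130.7, 138.4 and 164.1 FPKM in the young samples and 182.8, 180.7 and 201.6 FPKM in the old samples. The lowest old sample was above the highest young sample. The mean rose from 144.4 ± 17.5 to 188.4 ± 11.5 FPKM (SD, n = 3 each), 1.31-fold, with a log2 change of 0.39 (SE 0.1, 95% interval 0.16 to 0.61) and an adjusted p of 0.048 in limma. The exact permutation p was 0.1. The direction was the same under all 18 alternatives, but the call was lost under 11 of them. The adjusted p for Timp2 was 0.113 without young sample 1, 0.136 without young sample 2, 0.104 without old sample 1, 0.118 without old sample 2 and 0.128 without old sample 3, while it was 0.0189 without young sample 3. Quantile normalization gave Timp2 a log2 change of 0.28 with an adjusted p of 0.121.

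Neither Timp2 transcript passed the threshold alone. The main one, ENSMUST00000017610 (3709 nt), had 106.4, 107.6 and 139.0 FPKM in the young and 151.6, 133.3 and 145.4 FPKM in the old samples, with an adjusted p of 0.268. The short one, ENSMUST00000155707 (718 nt), had 24.3, 30.8 and 25.1 FPKM in the young and 31.2, 47.5 and 56.2 FPKM in the old samples. Its groups did not overlap, yet its adjusted p was 0.173 at a log2 change of 0.71 (SE 0.22). Timp2 also holds the gene Cep295nl on the same strand, which was at 2.39 to 4.15 FPKM, with a log2 change of 0.47 and an adjusted p of 0.13.

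**Figure D2:**
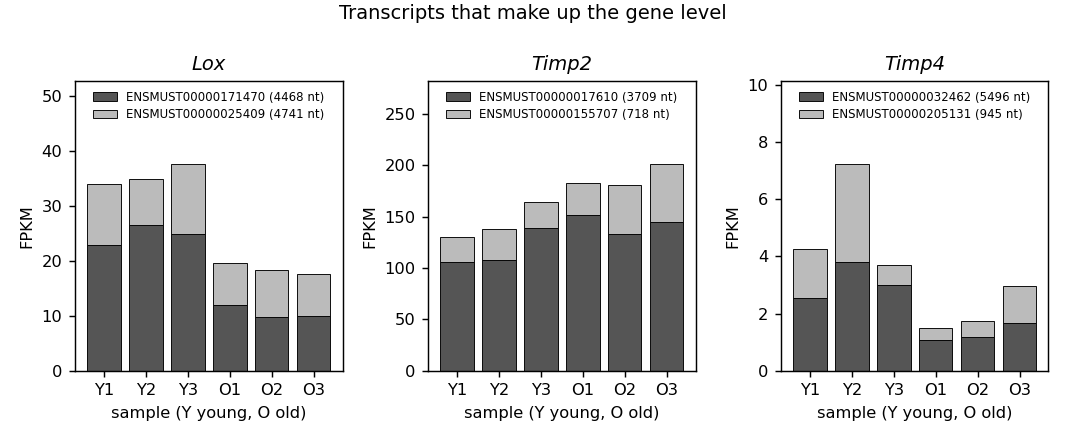
FPKM of the 2 annotated transcripts of Lox, Timp2 and Timp4 in the table, stacked for young samples 1 to 3 (Y) and old samples 1 to 3 (O), so that the height of a bar is the level of the gene. In Lox the dark part, ENSMUST00000171470, shrinks from 22.9 to 26.5 FPKM in the young to 9.77 to 12.0 FPKM in the old samples.

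Timp3 was the most abundant of the 10 genes. Timp3 is bound to the matrix and inhibits ADAMTS proteases as well as metalloproteinases, and it lies on chromosome 10 from 86300372 to 86349506. It had 190.4, 168.7 and 175.2 FPKM in the young and 181.8, 164.7 and 208.1 FPKM in the old samples. The groups overlapped, with a log2 change of 0.05 (SE 0.1, 95% interval -0.18 to 0.27) and an adjusted p of 0.774. The sign of this change turned under quantile normalization, under sample weights and without old sample 3. Timp2 and Timp3 together made up 97.9 ± 0.687% of the summed TIMP level in the young and 97.3 ± 2.39% in the old samples. The ratio of Timp2 to Timp3 was 0.686, 0.821 and 0.937 in the young and 1.01, 1.10 and 0.969 in the old samples.

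Timp4 lay lower in all old samples but missed the threshold. Timp4 is the inhibitor with the most restricted tissue range, and lies on chromosome 6 from 115241892 to 115252205. It had 4.25, 7.23 and 3.70 FPKM in the young and 1.5, 1.72 and 2.96 FPKM in the old samples, which did not overlap. The log2 change was -1.25 (SE 0.33, 95% interval -2.03 to -0.48) with an adjusted p of 0.0561. Timp4 passed the threshold with a filter of at least 1 FPKM (adjusted p 0.0447), with sample weights (0.0378), with its most abundant transcript alone (0.0388) and in sums without transcripts shorter than 400 nt (0.0461). Its long transcript, ENSMUST00000032462, had 2.56, 3.81 and 2.98 FPKM in the young and 1.09, 1.19 and 1.67 FPKM in the old samples, with an adjusted p of 0.102 among transcripts.

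Timp1 varied widely between samples of the same age and did not pass the threshold. Timp1 is the inducible, secreted inhibitor, and lies on chromosome X from 20870166 to 20874735. It had 4.18, 0.608 and 0.887 FPKM in the young and 1.97, 18.0 and 4.23 FPKM in the old samples. Old sample 2 was far above the other 5, and young sample 1 was about as high as old sample 3. The log2 change of 1.92 (SE 0.91, 95% interval -0.2 to 4.04) had an adjusted p of 0.218 and an exact permutation p of 0.2. It ranged from 1.05 to 2.71 when each sample was left out. The values rested on an estimated 32.0, 4.9 and 6.03 fragments in the young and 13.8, 164.0 and 32.4 fragments in the old samples.

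Timp1, Timp3 and Timp4 each lie inside a synapsin gene, on the opposite strand. The libraries were directional, but whether the counting used the strand is not stated in the sources used here. Without strand, reads from a stretch that both genes cover may be assigned to the wrong gene. Only the spans of the genes were compared, and whether their exons overlap was not checked. Syn1, the host of Timp1, had 4.94, 8.07 and 3.87 FPKM in the young and 3.00, 2.65 and 2.01 FPKM in the old samples (log2 change -1.06, adjusted p 0.0606). Syn2, the host of Timp4, had 3.00, 4.14 and 2.36 FPKM in the young and 1.53, 2.05 and 1.97 FPKM in the old samples (log2 change -0.72, adjusted p 0.111). Syn2 thus lay lower in all old samples, as Timp4 did, at a similar level, and whether the genes shared reads was not tested. Syn3, the host of Timp3, was at 2.21 to 3.73 FPKM, far below Timp3, with a log2 change of 0.16 and an adjusted p of 0.67.

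None of the 3 metalloproteinases passed the threshold. Mmp14, which is anchored in the membrane and activates the precursor of Mmp2 (chromosome 14 from 54431612 to 54445364), had 27.0, 30.9 and 36.3 FPKM in the young and 34.8, 37.6 and 33.7 FPKM in the old samples. The groups overlapped, with a log2 change of 0.18 (SE 0.11, 95% interval -0.09 to 0.45) and an adjusted p of 0.357. Mmp2, a gelatinase of connective tissue cells (chromosome 8 from 92827291 to 92853420), had 24.7, 18.3 and 23.4 FPKM in the young and 25.7, 22.7 and 21.1 FPKM in the old samples. Its log2 change was 0.07 (SE 0.13, 95% interval -0.24 to 0.38) with an adjusted p of 0.756. Mmp13, a collagenase of bone and cartilage (chromosome 9 from 7272514 to 7283331), was the lowest of the 10 genes, with 0.882, 0.0302 and 0.470 FPKM in the young and 0, 0.479 and 0.217 FPKM in the old samples. The estimated fragments of Mmp13 were 27.6, 0.992 and 13.8 in the young and 0, 17.8 and 6.97 in the old samples. The groups overlapped, and the interval of the change was wide (log2 change -0.66, 95% interval -2.84 to 1.51, adjusted p 0.682).

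The balance between inhibitors and these 3 metalloproteinases is given as a description, without a test. The summed level of the 4 inhibitors was 329.5, 314.9 and 343.9 FPKM in the young and 368.1, 365.2 and 416.9 FPKM in the old samples. The summed level of the 3 metalloproteinases was 52.6, 49.3 and 60.2 FPKM in the young and 60.5, 60.8 and 55.0 FPKM in the old samples. The ratio of these sums was 6.12 ± 0.358 in the young and 6.56 ± 0.889 in the old samples (SD, n = 3 each), with overlapping ranges. All 3 old samples were thus above the young ones in inhibitor transcripts, mostly through Timp2, but not in the ratio.

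At the level of transcripts, the table held 18 of the 27 annotated transcripts of the 10 genes, and 17 were tested. The Lox transcript above was called lower and none was called higher, with 0.199% of all transcripts tested called lower and 0.549% called higher. At an unadjusted p under 0.05 in limma, 3 of the 17 were higher and 4 were lower, against 9.05% and 7.98% of all transcripts tested, and transcripts of 1 gene are not independent of each other. Among the short ones, ENSMUST00000196155 of Mmp14 (334 nt) was not detected in the young samples (0 FPKM) and had 3.17, 4.47 and 0 FPKM in the old ones, and FPKM of transcripts about as short as a sequenced fragment are uncertain.

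**Figure D3:**
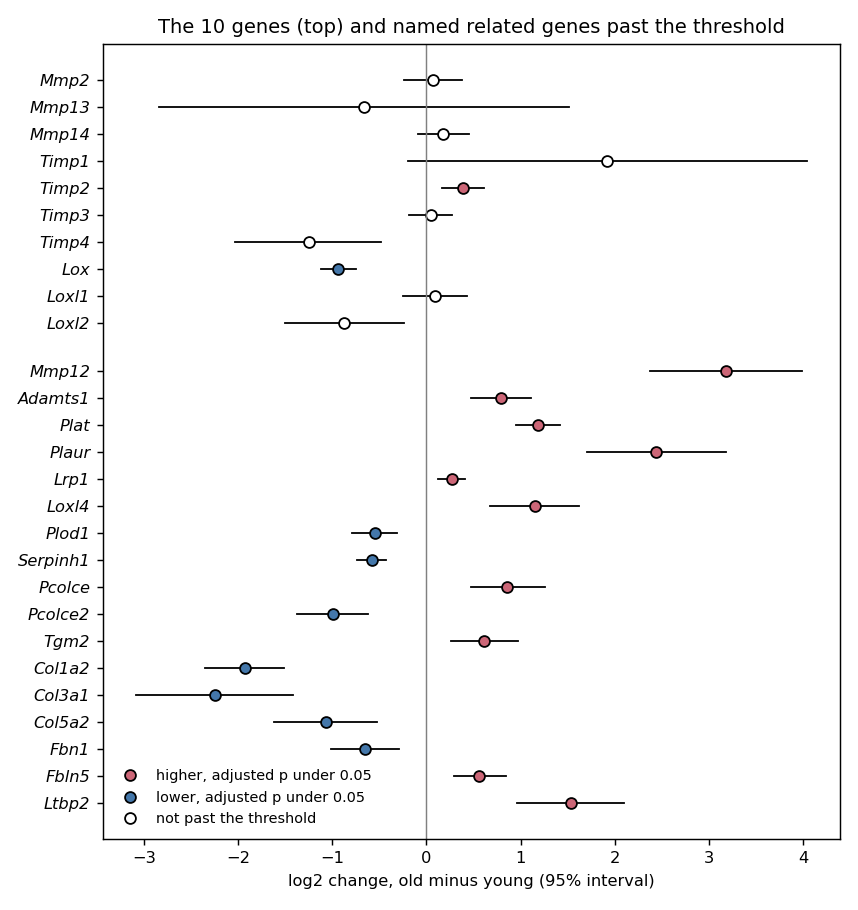
Log2 change from young to old with its 95% interval for the 10 genes (top) and for 17 named genes of the related lists that passed the threshold (bottom), each from 3 samples per age. Filled points passed an adjusted p of 0.05, red for higher and blue for lower in the old cochlea, and of the 10 genes these are Timp2 and Lox.

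Among other genes of matrix turnover, 93 of 103 listed genes were tested, of which 11 were higher and 9 lower. The background shares over all genes were 5.65% and 3.81%. Without old sample 2, 1 related gene was called higher and 1 lower, and the counts without each of the other samples lay between 4 and 9 higher and between 3 and 11 lower. Over all genes, leaving out old sample 2 also left the fewest calls, with 46 higher and 16 lower.

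Other metalloproteinases had 1 gene called higher and none called lower of 14 tested (20 listed, 5 of them at 0 in every sample). Mmp12, the elastase of macrophages, had 0.510, 0.185 and 0.207 FPKM in the young and 3.62, 3.00 and 3.35 FPKM in the old samples. Its log2 change of 3.18 (SE 0.35, adjusted p 0.011) was the largest among the related genes called. The summed level of 11 macrophage markers was 132.7 to 206.7 FPKM in the young and 711.9 to 790.0 FPKM in the old samples. The largest part of this sum was Lyz2, with a mean of 72.7 FPKM in the young and 450.2 FPKM in the old samples. Of the 11 markers, 9 were called higher and none lower. The part of this rise in Mmp12 or in any other gene here was not tested. The count of macrophage markers called higher was 1 without old sample 2, and 7 to 9 without each of the other samples. ADAMTS proteases, which cut proteoglycans and procollagens, had 1 gene higher and none lower of 15 tested, and a median log2 change of -0.29. The gene called higher was Adamts1, an aggrecan- and versican-cutting enzyme (log2 change 0.79, adjusted p 0.0224). Adamts1 had 16.1, 12.2 and 14.0 FPKM in the young and 25.4, 27.1 and 20.9 FPKM in the old samples. It was not called without young sample 2, old sample 1 or old sample 2.

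Genes that activate, inhibit or take up proteases had 3 members higher and none lower of 14 tested. Plat, tissue plasminogen activator, rose from 28.8, 28.2 and 35.9 FPKM in the young to 69.2, 70.5 and 70.0 FPKM in the old samples (log2 change 1.18, SE 0.1, adjusted p 0.00536). Plaur, the receptor that holds urokinase on the cell surface, rose from 1.67, 0.948 and 0.790 to 6.03, 8.59 and 4.87 FPKM (log2 change 2.44, SE 0.32, adjusted p 0.0122). Lrp1, an endocytic receptor that clears proteases bound to inhibitors, was 110.6, 103.6 and 115.5 FPKM in the young and 133.2, 133.8 and 129.3 FPKM in the old samples (log2 change 0.27, adjusted p 0.0423). In all 3 genes the old samples were above the young ones, which the rule for naming related genes required.

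Collagen processing and crosslinking genes were called in both directions, 4 higher and 4 lower of 24 tested. Loxl4, another lysyl oxidase, went the opposite way to Lox, from 1.31, 1.51 and 1.95 FPKM in the young to 3.95, 3.59 and 3.31 FPKM in the old samples (log2 change 1.15, SE 0.2, adjusted p 0.0225). Pcolce, an enhancer of the enzyme that trims procollagen, was higher (log2 change 0.86, adjusted p 0.0278), while its relative Pcolce2 was lower (log2 change -0.99, adjusted p 0.0196). Tgm2, a transglutaminase, was higher (log2 change 0.61, adjusted p 0.0473). Among the genes called lower were Serpinh1, the collagen chaperone of the endoplasmic reticulum, with 127.8, 120.8 and 136.8 FPKM in the young and 84.0, 86.8 and 86.3 FPKM in the old samples (log2 change -0.58, adjusted p 0.0111), and Plod1, a lysyl hydroxylase (log2 change -0.55, adjusted p 0.0257).

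The fibrillar collagens, the main substrates of Lox, had no gene called higher and 4 called lower of 11 tested. Without any 1 of the old samples, 1 of them was called lower. Col3a1 had 22.7, 8.38 and 9.58 FPKM in the young and 2.26, 2.39 and 2.87 FPKM in the old samples (log2 change -2.25, SE 0.35, adjusted p 0.0186). Col1a2 had 96.3, 59.1 and 63.5 FPKM in the young and 20.4, 17.5 and 18.1 FPKM in the old samples (log2 change -1.93, SE 0.18, adjusted p 0.00709). Col5a2 had a log2 change of -1.07 with an adjusted p of 0.0365. Not all members lay lower: Col11a2, the most abundant of the list and named after its values were seen, had 273.0, 221.9 and 235.9 FPKM in the young and 330.9, 316.6 and 281.8 FPKM in the old samples (log2 change 0.35, adjusted p 0.066). Col27a1, named likewise, was also above all young samples in every old sample (log2 change 0.54, adjusted p 0.0698). The summed level of the list overlapped between the ages, with 495.1, 367.9 and 387.4 FPKM in the young and 422.1, 399.3 and 354.0 FPKM in the old samples. The elastic fibre genes had 2 higher and 1 lower of 12 tested, namely Ltbp2 (log2 change 1.53, adjusted p 0.019), Fbln5 (0.56, adjusted p 0.0313) and the fibrillin gene Fbn1 (-0.65, adjusted p 0.043).

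Other cell type markers moved with age beside Lox and the collagens. Over all genes tested, 5.65% were called higher, 3.81% were called lower and 16.1% lay below all young samples in every old sample. Of 12 osteoblast and osteocyte markers, 10 were below all young samples in every old sample, and 2 were called lower, among them Ibsp, with 22.9, 6.36 and 12.5 FPKM in the young and 1.43, 2.25 and 2.08 FPKM in the old samples (adjusted p 0.02). The count of 2 called lower was 0 without any 1 of the old samples and 5 without young sample 2. Alpl of this list went the other way, with 18.3, 9.14 and 14.8 FPKM in the young and 22.0, 19.2 and 20.2 FPKM in the old samples (adjusted p 0.149). Of 10 fibroblast markers, 2 were called lower and none higher. The sum of the 10 was 411.0 to 467.6 FPKM in the young and 326.2 to 364.5 FPKM in the old samples. Its largest part was Dcn, called lower, with a mean of 253.1 FPKM in the young and 178.8 FPKM in the old samples. Lum and Pi16 of this list went the other way, above all young samples in every old sample (adjusted p 0.0682 and 0.148). The mean of Lum was 82.7 FPKM in the young and 103.8 FPKM in the old samples. Of 5 spiral ligament fibrocyte markers, 1 was called higher, Car3 (log2 change 1.15, adjusted p 0.0122), and 1 lower, Coch (log2 change -0.6, adjusted p 0.0231). Of 8 chondrocyte markers tested, 2 were called higher and 1 lower. Hair cell markers had 3 of 10 called lower, Slc26a5, Ocm and Chrna9, and 7 of 10 below all young samples in every old sample, with a median log2 change of -0.86. Schwann cell markers had 3 of 8 called lower, among them Pmp22 and Prx, with a median log2 change of -0.5. Egr2 of this list went the other way (log2 change 0.6, adjusted p 0.221), and Sox10 hardly differed (log2 change -0.03, adjusted p 0.918). Leaving out 1 sample moved the count called lower between 0 and 3 for hair cells, with 0 without old sample 2, and between 0 and 6 for Schwann cells, with 6 without young sample 3 and 0 without each other sample. Without old sample 2, no fibroblast or spiral ligament fibrocyte marker was called lower and no chondrocyte marker was called higher. The part of these shifts in the Lox difference was not tested.

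Single samples stood apart for other genes of this kind, which were picked after their values were seen. Mmp3, stromelysin, was at 6.93 FPKM in old sample 2, the sample with the highest Timp1, and at 0 to 0.589 FPKM in the other 5 samples. Plaur (8.59 FPKM) was also highest in old sample 2. Mmp8 and Mmp9, a collagenase and a gelatinase of neutrophils, were at 2.26 and 1.51 FPKM in young sample 1, the sample with the highest neutrophil markers, and at no more than 0.444 and 0.660 FPKM in the others. None of Mmp3, Mmp8 and Mmp9 passed the threshold, with adjusted p values of 0.144, 0.448 and 0.779.

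**Figure D4:**
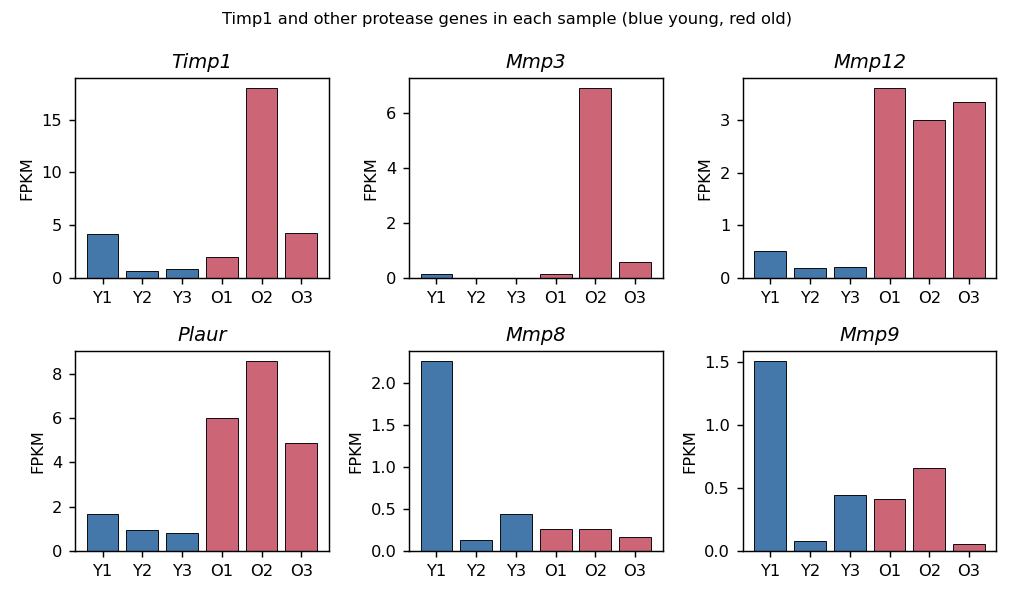
FPKM of Timp1, Mmp3, Mmp12, Plaur, Mmp8 and Mmp9 in young samples 1 to 3 (Y, blue) and old samples 1 to 3 (O, red), each bar 1 sample and each panel with its own scale. Mmp12 and Plaur are higher in all 3 old samples, Timp1 and Mmp3 peak in old sample 2 at 18.0 and 6.93 FPKM, and Mmp8 and Mmp9 peak in young sample 1.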

How the data were processed

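The authors deposited FPKM per transcript for 6 samples, made from directional paired-end libraries aligned to GRCm38. The submitters' processing notes name CASAVA 1.8, TopHat2 2.0.9, Cufflinks 2.1.1 and Cuffdiff 2.1.1. The annotation release and the strand setting are not given in the sources used here. Cuffdiff needs the reads and was not used. Transcripts were matched to GENCODE M21 (404 Ensembl transcripts were not matched and were left out) and summed per gene, without further scaling. The age contrast was fitted with limma 3.58.1 in R 4.3.3 (lmFit, eBayes with trend) on log2(FPKM + 0.1) for 19465 genes with a mean FPKM of at least 0.1. Adjusted p is the Benjamini-Hochberg value over all genes, or over 38764 transcripts, with a threshold of 0.05. Fold changes are on the log2(FPKM + 0.1) scale, which understates those of low genes. The code was tested on simulated data. Low FPKM values come in steps that gave an estimate of depth. The depth of each sample was chosen to make the largest share of them whole fragments. That share was 93.6 to 94.8% within 0.1, against 20% by chance at a depth not chosen this way, so it is not a test of the depth. Estimated fragments give the scale of counting error only, not the spread between pools. They rest on the fitted depth and on the FPKM of each transcript, and leave out transcripts shorter than 500 nt.

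The members and lists were chosen with earlier results of these data known. Named genes are the 10 members, genes overlapping them, defining markers, and in each related list the called genes with groups that do not overlap, up to 3 with the largest rise and 3 with the largest fall. Other genes are named where it is said that they were picked later. Alternatives were the pseudocount (0.01, 1), the filter (none, 1 FPKM), the scaling (median of ratios, quantile), no variance trend, sample weights (arrayWeights), a replicate block, each sample left out, the most abundant transcript, an unadjusted p and a 2-fold minimum. Sums without transcripts shorter than 400 nt were added after the values were seen. Python 3.11.15, pandas 2.3.3, numpy 2.4.6 and matplotlib 3.10.9 were used for tables and plots. For some listed genes no value is reported here.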

Additional observations from a re-analysis of the deposited data

How the results depend on the processing

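The calls of Timp2 and Timp4 lay close to the threshold, and the call of Lox was lost only with a 2-fold minimum, since its fold was 1.91. Of the 10 genes, 0 in place of 1 were called higher with a pseudocount of 1, no filter, quantile normalization, no variance trend, the replicate block, the most abundant transcript or a 2-fold minimum, and 0 to 1 when a sample was left out. The count called lower was 2 in place of 1 with a filter of at least 1 FPKM, sample weights, the most abundant transcript or sums without transcripts shorter than 400 nt, 3 with an unadjusted p and 0 with a 2-fold minimum. The log2 change of Timp3 turned to -0.06 under quantile normalization and to -0.01 with sample weights. Leaving out samples gave log2 changes of -0.04 to 0.13 for Timp3, -0.06 to 0.16 for Mmp2 and -1.5 to 0.04 for Mmp13, none of which passed the threshold.

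The related genes, 11 higher and 9 lower, became 5 and 3 without the variance trend, 26 and 17 with an unadjusted p, 5 and 3 with a 2-fold minimum, and 1 to 9 and 1 to 11 when a sample was left out. Over all genes, 1099 higher and 741 lower became 754 and 398 with no filter, 284 and 126 without the variance trend, 2849 and 2554 with an unadjusted p, 419 and 245 with a 2-fold minimum, and 46 to 949 and 16 to 822 when a sample was left out. Of the transcripts of the 10 genes, 3 were higher and 4 lower with an unadjusted p, against 9.05% and 7.98% of all transcripts, and 0 were lower without the variance trend, with 0 to 1 lower when a sample was left out. Of the 17 named related genes, 15 lost their call without old sample 2, 10 without old sample 1 and 10 without young sample 2, none with a change of sign. The cause was not tested.

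The replicate numbers were treated as names only. Deviations of same-numbered young and old samples correlated at 0.0349, -0.094 and 0.041, and those of differently numbered samples at -0.114 to 0.0808. Samples of the same number were thus no closer than others, though so few pairs cannot settle whether the numbers pair the samples. With a replicate block, 0 of the 10 genes were called higher (Timp2 had an adjusted p of 0.0506) and 1 lower (Lox, 0.0301), 5 related genes were higher, and over all genes 440 were higher and 290 lower. The Lox transcript was then not called, leaving 0 transcripts of the 10 genes lower.

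Of the marker counts, macrophage markers called higher were 5 in place of 9 without the variance trend, and osteoblast and osteocyte markers called lower were 5 in place of 2 with a filter of at least 1 FPKM. Mmp13, Timp1 and Loxl2 rested on at most 164.0 estimated fragments in a sample. Samples are pools, 3 per age. The limma p-values set the age difference against the variance between pools, which limma draws toward a trend over all genes.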
